A study of Mus musculus with 12 samples.

Results

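The miRNAs described are miR-451a, both arms of miR-144 and both arms of miR-486, which occupy 5 of the 386 mature miRNA rows measured in mouse liver and come from 2 places in the genome. Every row named for an arm of these miRNAs was taken, whatever its values. Small RNA was sequenced from 12 livers of wild-type C57BL/6 males aged 84 days, with 3 livers in each of 4 groups. In CC, mother and son both ate a control chow (7% simple carbohydrates, 3% lipids). In CO the mother ate the control chow and the son an obesogenic diet (10% simple carbohydrates, 20% lipids, with sweetened condensed milk). In OC the mother ate the obesogenic diet and the son the control chow, and in OO both ate the obesogenic diet. Mothers stayed on their diet until the sons were weaned on day 21, litters had been set to 6 pups, and all sons were fasted before they were killed. Levels are in CPM, reads of a miRNA scaled to a fixed total of reads per library. Replicate numbers only name the libraries, and mother and litter of each son are not named, so p-values measure the spread between these 12 livers. One title stem, of unstated meaning, is common to OC replicate 2 and OO replicate 3, so these livers may not be independent.

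miR-144 and miR-451a are cut from one transcript that the transcription factor GATA1 switches on as red cell precursors mature, and they are among the most abundant miRNAs of red cells. miR-451a is made without Dicer: its short hairpin is loaded whole onto Argonaute2, cut there within the 3' arm and trimmed back to the mature miRNA, so it comes from the 5' arm and the loop. miR-486 lies inside the gene of ankyrin 1, a protein of the red cell membrane skeleton, and is abundant in red cells and also in skeletal and heart muscle. An adult liver makes few red cells, but it holds blood, so these miRNAs are commonly read as a sign of blood in a tissue. These levels come from whole tissue, in which more cells of a type and more RNA per cell cannot be told apart. No library of blood or of sorted red cells was part of the groups.

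Of the 5 rows, 3 had a mature sequence in the RefSeq table (mouse build GRCm38.p6), shown because the seed decides which messages a miRNA can pair with. The seed, bases 2 to 8 counted from the 5' end, is in capitals.
miR-451a: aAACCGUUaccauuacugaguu
miR-144-3p: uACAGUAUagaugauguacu
miR-144-5p: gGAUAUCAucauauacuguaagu
The 3 seeds differ from each other. Among the rows with a sequence, only miR-101a-3p shared bases 2 to 7 (ACAGUA) with miR-144-3p, and no row shared bases 2 to 8 with any of the 3. miR-101a-3p was far more abundant, with a mean of 8424 CPM against 226.1 CPM for miR-144-3p.

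Both hairpins of the first locus are shown because the position of the mature miRNA in them differs. Capitals mark the mature bases.
Mir451a: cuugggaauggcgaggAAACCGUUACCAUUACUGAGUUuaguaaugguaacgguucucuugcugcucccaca
Mir144: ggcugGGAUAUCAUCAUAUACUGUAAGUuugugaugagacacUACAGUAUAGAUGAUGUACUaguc
In the structure predicted by RNAfold, mature miR-451a covered hairpin bases 17 to 38 and ran through all 4 bases of the loop, bases 35 to 38. The arms of miR-144 lay at bases 6 to 28 and 43 to 62, on either side of a loop at bases 31 to 36. On GRCm38, Mir144 lies at chr11:78073005-78073070 and Mir451a at chr11:78073170-78073241, both on the plus strand with 99 bases between them. The annotation places Mir451b on the minus strand at the coordinates of Mir451a, and no other gene overlaps either hairpin. Mir486 lies at chr8:23142555-23142682 on the plus strand and Mir3107 at chr8:23142573-23142662 on the minus strand, both inside Ank1 without touching one of its exons, and both overlap Gm15816, an antisense gene. The table gives miR-3107-5p and miR-486-5p 1 shared row, so reads from these hairpins could not be told apart. It is called miR-486-5p below.

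miR-486-5p was the most abundant of the 5 rows, at place 32 of 386 by mean level (2736 CPM), followed by miR-451a at place 46 (1228 CPM). miR-144-3p (226.1 CPM) and miR-144-5p (193.1 CPM) stood at places 96 and 101. miR-486-3p, the minor arm, stood at place 252 with 11.25 CPM. A small RNA read covers the whole miRNA, so levels need no length correction, but ligation and read matching also shape the order between miRNAs. The 5 rows together held a mean of 0.605 ± 0.252% of all CPM in CO and 0.403 ± 0.113% in OC, against 0.366% in both CC and OO (± 0.0724 and ± 0.0792; SD, n = 3 each). CO replicate 1 stood apart with 0.893%, and the other 11 livers lay between 0.284% and 0.519%.

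miR-451a, the most abundant product of the first locus, was at 1328, 1062 and 828 CPM in the CC livers and at 2563, 1446 and 826 CPM in those of CO. The OC livers held 924, 1427 and 1088 CPM of it and the OO livers 983, 965 and 1296 CPM. The 4 groups overlapped, and in CPM CO held both the highest of the 12 livers and the lowest, replicate 3, which was all but level with CC replicate 3. Which liver was lowest depended on the scaling. With median-of-ratios factors, another scaling, the factor was 0.856 for CO replicate 3 and 0.972 to 1.099 for the other livers. Dividing by these factors puts CO replicate 3 above CC replicate 3. CO had the highest mean, 1612 ± 880.1 CPM, and the widest spread. CC averaged 1073 ± 250 CPM, OO 1081 ± 185.8 CPM and OC 1146 ± 256.8 CPM (SD, n = 3).

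miR-144-3p, the arm known to target the message of NRF2, a regulator of the oxidative stress response, was at 231, 228 and 171 CPM in the CC livers, 481, 257 and 164 CPM in CO livers, 148, 308 and 180 CPM in OC livers, and 183, 172 and 190 CPM in OO livers. The OO livers lay closest together, and CO replicate 1 was again the highest of all. miR-144-5p, the other arm of that hairpin, was at 236.6, 193.7 and 143.9 CPM in the CC livers, 361.1, 175.1 and 175.5 CPM in CO livers, 136.7, 252.2 and 166.7 CPM in OC livers, and 147, 136.1 and 192.4 CPM in OO livers. Here CO replicate 1 was once more the highest and OC replicate 2 came next.

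miR-486-5p, the major arm of its hairpin, was at 2459, 2454 and 1718 CPM in the CC livers, 5594, 2374 and 3884 CPM in CO livers, 1741, 3254 and 2554 CPM in OC livers, and 2280, 1670 and 2855 CPM in OO livers. Replicates 1 and 3 of CO were the highest of the 12 livers for this row, whereas CO replicate 3 was the lowest of the 12 for miR-451a in CPM, a place that depended on the scaling. miR-486-3p was at 11.8, 11.11 and 8.621 CPM in the CC livers, 19.55, 10.42 and 11.93 CPM in CO livers, 7.571, 12.91 and 13 CPM in OC livers, and 10.79, 6.966 and 10.31 CPM in OO livers. This row rests on 65 to 256 reads a library, against 4500 to 33565 for miR-451a, when the step between values is taken as 1 read, which the sources do not state.

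**Figure D1:**
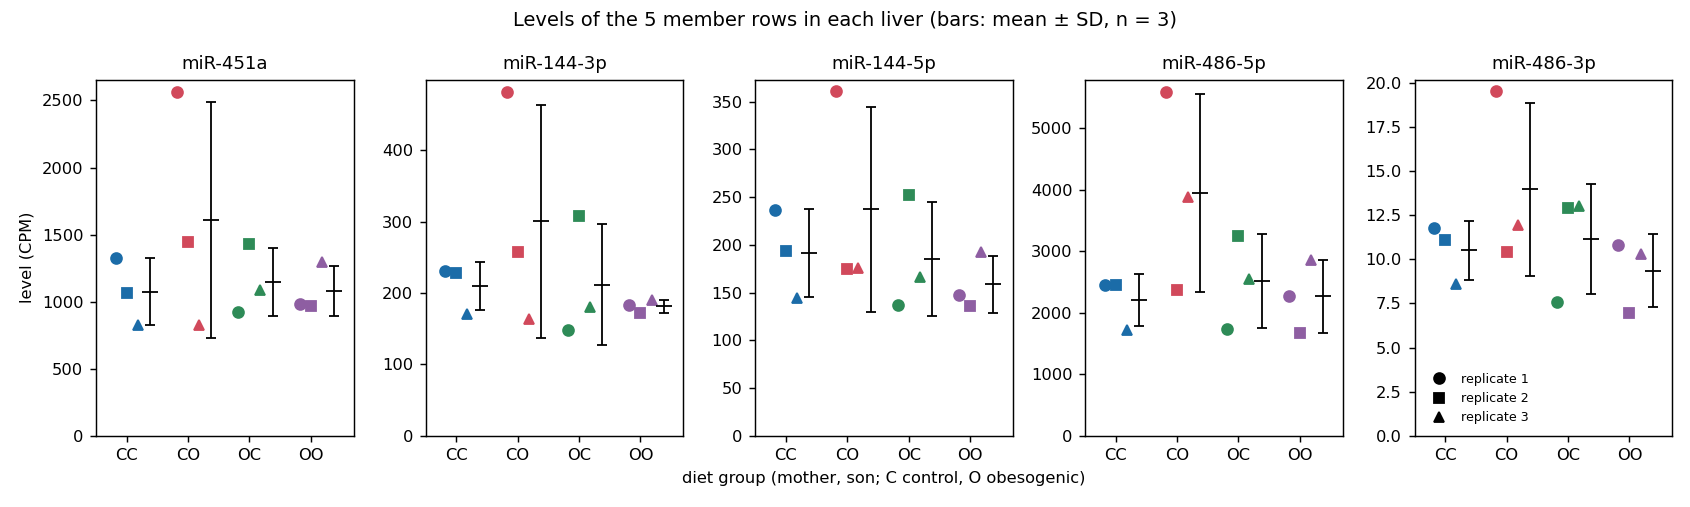
Level of each of the 5 rows (CPM, linear axis from 0) in the 12 livers by diet group. Symbols are replicates and bars are the mean ± SD of 3 livers. CO replicate 1 is the highest point in all 5 panels, and the groups overlap in every panel.

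The 5 rows kept much the same order of livers inside a group. In CC, replicate 1 was the highest and replicate 3 the lowest for all 5 rows. In OC replicate 1, and in OO replicate 2, was the lowest for all 5. OC replicate 2 was the highest of its group for every row except miR-486-3p, as was OO replicate 3 of its own; these are the livers whose titles share a stem. CO replicate 1 was the highest of its group for all 5, but the lowest was replicate 3 for miR-451a and miR-144-3p and replicate 2 for the other rows.

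Pooled over the diet groups, these rows varied more between livers of 1 group than most miRNAs did. The SD within groups, on the log2(CPM + 1) scale, was 0.484 for miR-451a, 0.491 for miR-144-3p, 0.435 for miR-144-5p, 0.456 for miR-486-5p and 0.356 for miR-486-3p. The median over all 386 rows was 0.242, and 0.189 over the 140 rows with a mean of at least 100 CPM. Between 36 and 83 of the 386 rows varied more than a given one of the 5. From the lowest to the highest liver, levels spanned 3.1-fold for miR-451a, 3.25-fold for miR-144-3p, 2.65-fold for miR-144-5p, 3.35-fold for miR-486-5p and 2.81-fold for miR-486-3p, against a median of 2.02-fold over all rows. Within single groups, CO had the widest span for all 5 rows, from 1.88-fold for miR-486-3p to 3.1-fold for miR-451a. In the other groups the spans lay between 1.1-fold (miR-144-3p in OO) and 2.08-fold (miR-144-3p in OC). The pooled SD therefore does not describe each group alone.

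The products of the first locus moved together from liver to liver. miR-451a and miR-144-3p correlated at Pearson r = 0.933 (permutation p = 6e-05, adjusted over 10 pairs 0.00045) and Spearman rho = 0.937 (permutation p = 5e-05, adjusted 0.0005) over 12 livers. Without CO replicates 1 and 2, the livers farthest from the median of miR-451a, r was 0.795. Within control mothers it was 0.983 and within obesogenic mothers 0.855. Within control-fed sons it was 0.857 and within obesogenic-fed sons 0.967, 6 livers each. The group means did not carry it, since r over deviations from the group means was 0.937.

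miR-144-5p followed miR-144-3p at r = 0.913 (permutation p = 0.00027, adjusted 0.00067) and rho = 0.797 (permutation p = 0.003, adjusted 0.0075), with r = 0.69 without the pair of farthest livers, CO replicate 1 and OC replicate 2. It followed miR-451a at r = 0.879 (permutation p = 0.00075, adjusted 0.0015) and rho = 0.692 (permutation p = 0.015, adjusted 0.026), with r = 0.814 without the farthest pair. The 2 arms of miR-486 correlated at r = 0.909 (permutation p = 9e-05, adjusted 0.00045) and rho = 0.839 (permutation p = 0.0012, adjusted 0.0044). That r was 0.881 without CO replicates 1 and 3, the farthest livers. Within the 4 diet levels r lay between 0.892 and 0.941 for the arms of miR-486.

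Across the 2 loci, the correlations of miR-451a and of miR-144-3p with miR-486 moved with which livers of CO were included. miR-451a and miR-486-5p correlated at r = 0.685 (permutation p = 0.017, adjusted 0.017), but by rank at rho = 0.469 (permutation p = 0.13, adjusted 0.13). Without CO replicates 1 and 2, the farthest from the median, r was 0.363. Leaving out CO replicate 1 alone gave r = 0.316 and leaving out CO replicate 3 alone gave r = 0.928. With both of these left out, a choice made after their values were seen, r was 0.807 over 10 livers. Within the 6 livers of control mothers, among them both of those livers, r was 0.618 (exact permutation p = 0.2), and within obesogenic mothers it was 0.918 (exact permutation p = 0.015). Within control-fed sons it was 0.905 (exact permutation p = 0.024) and within obesogenic-fed sons 0.596 (exact permutation p = 0.21).

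The other pairs across the loci behaved in 2 ways. miR-144-3p with miR-486-5p gave r = 0.717 (permutation p = 0.011, adjusted 0.012) and rho = 0.49 (permutation p = 0.11, adjusted 0.12). Its r was 0.207 without CO replicate 1 and OC replicate 2, the farthest pair, and 0.899 without CO replicate 3. With CO replicates 1 and 3 both left out it was 0.74. Within obesogenic mothers it was 0.791 (exact permutation p = 0.011) and within control-fed sons 0.882 (exact permutation p = 0.015). Within control mothers it was 0.642 and within obesogenic-fed sons 0.663 (exact permutation p = 0.17 for both). miR-144-5p with miR-486-5p gave r = 0.841 (permutation p = 0.00089, adjusted 0.0015) and rho = 0.832 (permutation p = 0.0013, adjusted 0.0044), and r = 0.612 without its farthest pair and 0.682 without CO replicate 1. All 10 pairs passed an adjusted p of 0.05 by Pearson's r over 12 livers, and 6 did without CO replicate 1. The 4 pairs lost were those of miR-451a and of miR-144-3p with each arm of miR-486. By Spearman's rho over 12 livers only 6 pairs passed, and the same 4 did not (permutation adjusted p from 0.11 to 0.13). With miR-486-3p, miR-451a gave r = 0.741 and rho = 0.49, and miR-144-3p gave r = 0.787 and rho = 0.538. Sequencing depth ran from 5.45 to 22.2 M reads (M, 1e6) a library, and no row was related to it past the test over 12 livers (r from -0.348 to 0.222, permutation adjusted p from 0.82 to 0.84). Within control mothers r with depth lay between -0.0335 and 0.724 (miR-451a), and within obesogenic mothers between -0.599 and -0.178. For miR-451a it was 0.544 without the 2 libraries farthest from the median depth. These values within parts of the livers were not tested.

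**Figure D2:**
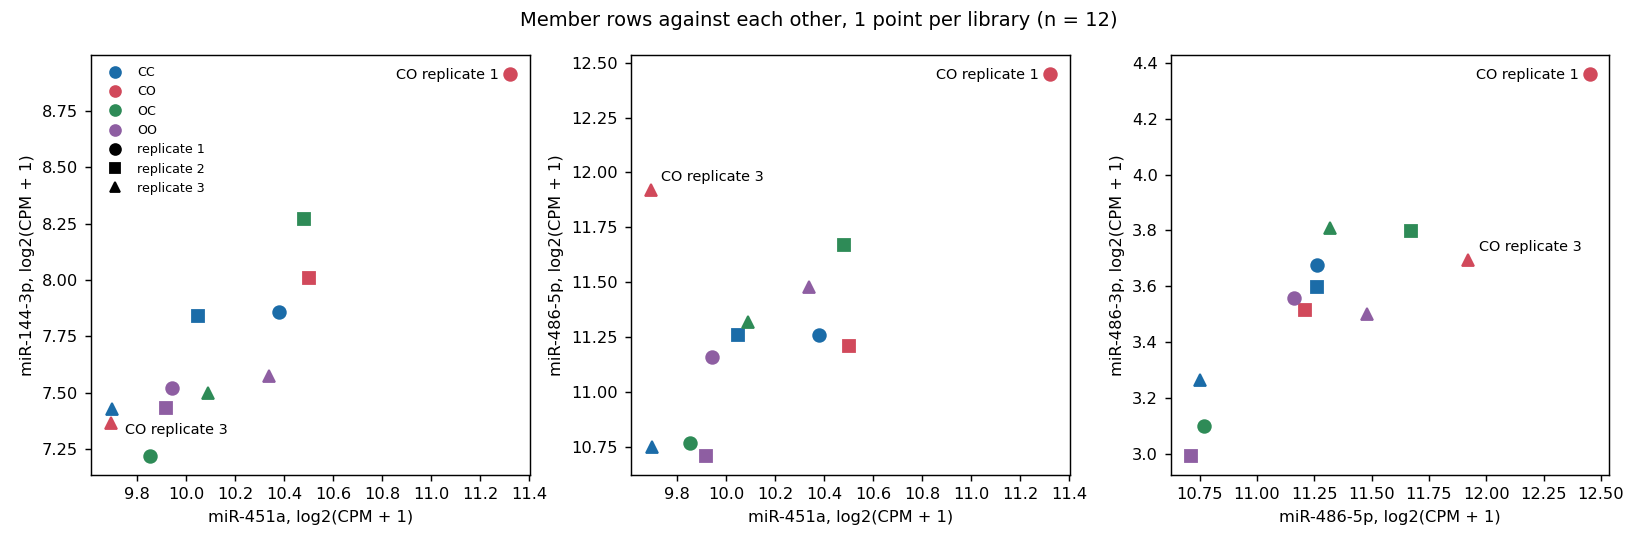
Log2(CPM + 1) of miR-144-3p against miR-451a (left), miR-486-5p against miR-451a (middle) and miR-486-3p against miR-486-5p (right), 1 point per liver, colour by group and symbol by replicate. CO replicate 3 lies above the livers of like miR-451a level in the middle panel; r is 0.933, 0.685 and 0.909.

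Ratios taken inside a library do not depend on its scaling, and showed where the 2 loci parted. In 11 of the 12 livers there were between 1.64 and 2.35 CPM of miR-486-5p for each CPM of miR-451a, with a mean of 2.08 ± 0.255 (SD, n = 11). In CO replicate 3 the ratio was 4.7. The other livers of CO, replicates 1 and 2, had 2.18 and 1.64, so the liver with the highest level of every row had a ratio like that of the rest. CO replicate 3 stood apart in other ways too. It was the shallowest library (5.45 M reads) and of the 12 livers held the lowest miR-16-5p (5385 CPM), miR-142-3p (40.94 CPM) and miR-126-5p (12324 CPM) and the highest miR-192-5p (295048 CPM) and miR-122-5p (28851 CPM). Other rows of the same cell types went differently. Of hepatocyte rows, miR-194-5p was at its lowest (3704 CPM) and miR-122-3p lay inside its range (1968 CPM). The leukocyte row miR-146a-5p was at its highest (517.7 CPM). The part of these differences in its ratio was not tested. Its 2 muscle miRNAs with a row, miR-133a-3p and miR-1a-3p, summed to 94.36 CPM, below the median of 234.1 CPM over the 12 livers. A part of muscle in this ratio was not tested either.

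Within the first locus the ratio of miR-451a to miR-144-3p lay between 4.64 and 6.83 in all 12 livers. Its group means ran from 5.08 ± 0.589 in CC to 5.95 ± 0.777 in OO (SD, n = 3), with CO at 5.33 ± 0.299 and OC at 5.64 ± 0.871. The arms of miR-144 were close to equal, with 0.935 to 1.47 CPM of miR-144-3p for each CPM of miR-144-5p. The arms of miR-486 were not, with 196 to 325 CPM of the miR-486-5p row, shared with miR-3107-5p, for each CPM of miR-486-3p. The lowest and highest mean of the latter were 210 ± 10.9 in CC and 280 ± 49.2 in CO. No ratio differed by diet past the test: 0 of 8 comparisons, 4 ratios by 2 diets, passed the exact permutation test within the other diet, which can reach 0.005. The smallest of these p-values was that of miR-486-3p to miR-486-5p by the sons' diet, at a log2 difference of -0.26 (exact permutation p = 0.08, adjusted 0.5, two-sided).

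**Figure D3:**
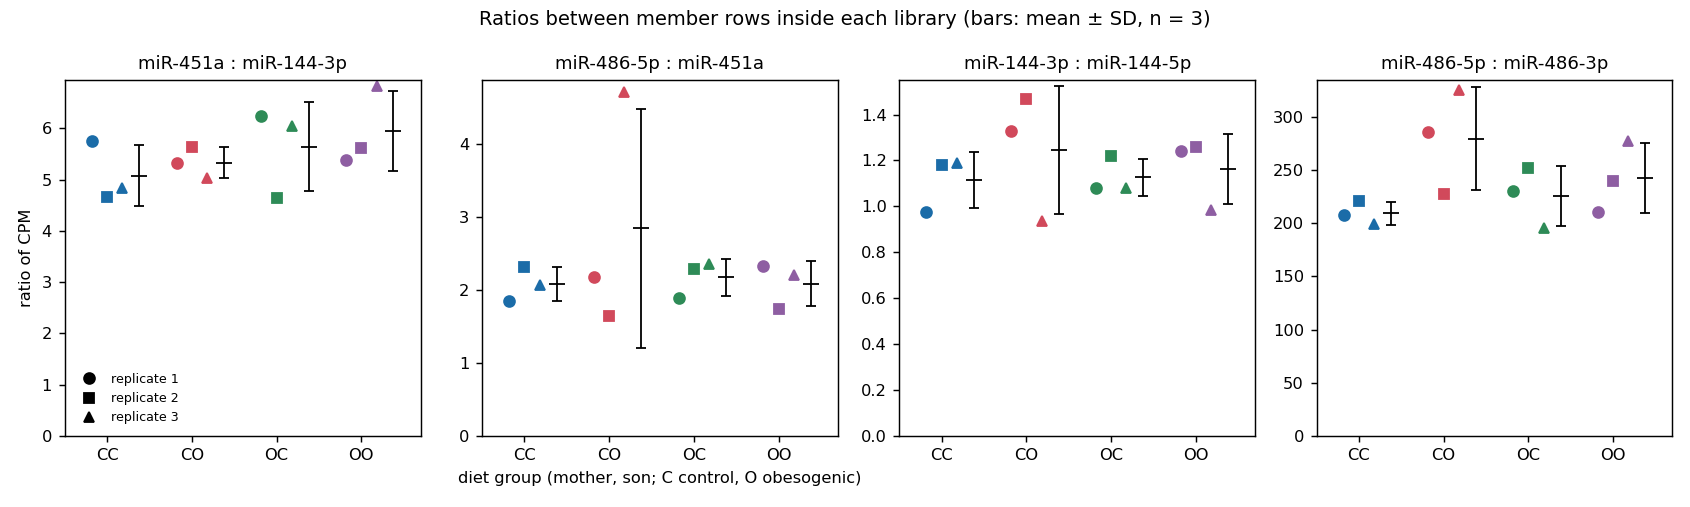
Ratio of 2 rows' CPM inside each liver, by diet group, on linear axes from 0. Symbols are replicates and bars are the mean ± SD of 3 livers. CO replicate 3 has a miR-486-5p to miR-451a ratio of 4.7, and the other 11 livers lie between 1.64 and 2.35.

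None of the 5 rows passed the test by the sons' own diet. Averaged over maternal diet, obesogenic-fed sons had 1347 CPM of miR-451a against 1110 CPM in control-fed sons, and 3109 against 2364 CPM of miR-486-5p. The log2 difference was 0.20 for miR-451a (95% interval -0.33 to 0.72, limma adjusted p = 0.756), 0.12 for miR-144-3p (-0.42 to 0.65, adjusted p = 0.891), 0.03 for miR-144-5p (-0.45 to 0.51, adjusted p = 0.961), 0.32 for miR-486-5p (-0.18 to 0.81, adjusted p = 0.557) and 0.06 for miR-486-3p (-0.35 to 0.48, adjusted p = 0.93). By limma 0 of the 5 passed an adjusted p of 0.05, and 0 had an unadjusted p under 0.05, while 3 of all 386 rows passed (0.777%) and 57 had an unadjusted p under 0.05. The median difference was 0.12 over the 5 rows and -0.02 over all rows. The sign of 4 of them turned without CO replicate 1: miR-451a stood at -0.01, miR-144-3p at -0.09, miR-144-5p at -0.15 and miR-486-3p at -0.06, and miR-486-5p at 0.17. The sign of miR-144-5p also turned without CC replicate 3, OC replicate 1 or OO replicate 3, and that of miR-486-3p without OC replicate 1. All titles of control-fed sons, and 1 of the 6 of obesogenic-fed sons, end in the letter A, with no meaning given, so a factor behind that letter was not fully separable from the sons' diet.

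By maternal diet all 5 rows lay lower in sons of obesogenic mothers, and none passed the test. miR-451a averaged 1114 CPM against 1342 CPM in sons of control mothers, and miR-144-3p averaged 196.7 against 255.5 CPM. The log2 differences were -0.17 for miR-451a (95% interval -0.70 to 0.36), -0.32 for miR-144-3p (-0.85 to 0.22), -0.29 for miR-144-5p (-0.77 to 0.20), -0.29 for miR-486-5p (-0.79 to 0.20) and -0.23 for miR-486-3p (-0.64 to 0.19), with limma adjusted p-values from 0.704 to 0.779. With limma, 0 of the 5 passed, 0 had an unadjusted p under 0.05, and 0 of all 386 rows passed (0%), with 27 at an unadjusted p under 0.05. The median was -0.29 over the 5 rows and 0.08 over all rows. Without CO replicate 1 miR-451a stood at 0.04, and the other rows stayed below 0, between -0.15 and -0.10. Libraries of obesogenic mothers were deeper (16.7 ± 4.78 against 10.6 ± 3.78 M reads, SD, n = 6), and the prefixes of the sample titles split with maternal diet, so a batch behind them cannot be told apart from that diet.

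Among sons of control mothers, the obesogenic diet went with higher values of all 5 rows, short of the test. miR-486-5p averaged 3950 ± 1611 CPM in CO and 2211 ± 426.5 CPM in CC (SD, n = 3), a log2 difference of 0.77 (SE 0.32, 95% interval 0.07 to 1.47, limma adjusted p = 0.255). CO replicate 2, at 2374 CPM, lay inside the range of CC, so the groups overlapped. The difference was 0.46 for miR-451a (-0.28 to 1.21), 0.39 for miR-144-3p (-0.37 to 1.15), 0.25 for miR-144-5p (-0.43 to 0.93) and 0.34 for miR-486-3p (-0.25 to 0.93), with limma adjusted p-values from 0.557 to 0.733. In the limma fit 0 of 5 passed and 1, miR-486-5p, had an unadjusted p under 0.05, while 3 of 386 rows passed (0.777%) and 63 had an unadjusted p under 0.05. Without CO replicate 1 the differences were 0.48 for miR-486-5p, 0.05 for miR-451a, 0.09 for miR-486-3p, -0.02 for miR-144-3p and -0.10 for miR-144-5p.

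Among sons of obesogenic mothers the obesogenic diet went with values slightly below those of control-fed sons, again short of the test. The log2 difference between OO and OC was -0.07 for miR-451a (95% interval -0.82 to 0.67), -0.16 for miR-144-3p (-0.92 to 0.61), -0.19 for miR-144-5p (-0.87 to 0.49), -0.14 for miR-486-5p (-0.84 to 0.56) and -0.22 for miR-486-3p (-0.81 to 0.37), each with an adjusted p of 0.982 by limma. Of the 5, 0 passed by limma and 0 had an unadjusted p under 0.05, while 2 of 386 rows passed (0.518%) and 28 had an unadjusted p under 0.05. Without OC replicate 2 the differences were above 0 for 4 rows, at 0.10 for miR-451a, 0.15 for miR-144-3p, 0.05 for miR-144-5p and 0.07 for miR-486-5p.

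Between the control-fed groups, OC and CC, the 5 rows differed by -0.07 to 0.16 on the log2 scale. The 95% interval was -0.65 to 0.84 for miR-451a and -0.54 to 0.86 for miR-486-5p, with limma adjusted p-values of 1. By limma 0 of 5 passed, 0 had an unadjusted p under 0.05, and 0 of 386 rows passed (0%), with 4 at an unadjusted p under 0.05. These intervals leave out neither a small rise nor a small fall.

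Between the obesogenic-fed groups, all 5 rows lay lower in OO than in CO. miR-486-5p averaged 2268 ± 592.1 CPM in OO against 3950 ± 1611 CPM in CO, a log2 difference of -0.75 (SE 0.32, 95% interval -1.45 to -0.05, limma adjusted p = 0.371). The difference was -0.44 for miR-451a (-1.18 to 0.31), -0.59 for miR-144-3p (-1.35 to 0.17), -0.51 for miR-144-5p (-1.19 to 0.18) and -0.51 for miR-486-3p (-1.09 to 0.08), with limma adjusted p-values from 0.381 to 0.486. With limma, 0 of 5 passed, 1 had an unadjusted p under 0.05, and 0 of 386 rows passed (0%), with 47 at an unadjusted p under 0.05. All rows had a median of 0.13 in this comparison, which became 0.02 with median-of-ratios factors; with those factors miR-486-5p stood at -0.88 and miR-451a at -0.57, and 0 of 5 passed. Without CO replicate 1 the differences shrank to -0.03 for miR-451a, -0.18 for miR-144-3p, -0.16 for miR-144-5p, -0.46 for miR-486-5p and -0.25 for miR-486-3p.

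The effect of the sons' diet was not shown to depend on the maternal diet for any of the 5 rows. The interaction, the OO to OC difference less the CO to CC difference, was -0.91 for miR-486-5p (95% interval -1.90 to 0.08, limma adjusted p = 0.773). It was -0.54 for miR-451a (-1.59 to 0.52), -0.54 for miR-144-3p (-1.62 to 0.53), -0.44 for miR-144-5p (-1.41 to 0.52) and -0.56 for miR-486-3p (-1.39 to 0.27), with limma adjusted p-values from 0.773 to 0.78. In the limma fit 0 of 5 passed, 0 had an unadjusted p under 0.05, and 0 of 386 rows passed (0%), with 15 at an unadjusted p under 0.05. Without CO replicate 1 the interaction was -0.13 for miR-451a and -0.62 for miR-486-5p. CO and the other groups each enter several of these comparisons, so their values are not separate evidence of one another.

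**Figure D4:**
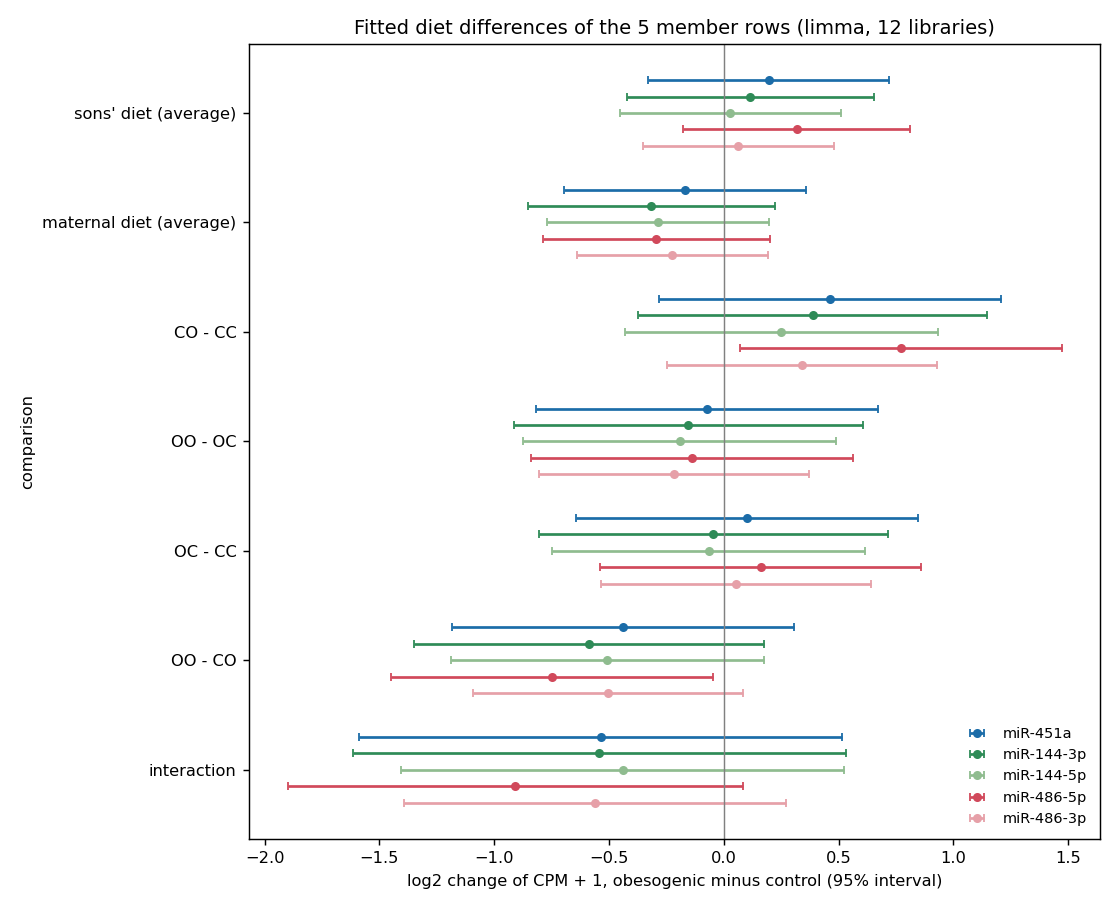
Fitted log2 difference of CPM + 1 for the 5 rows in each comparison, with 95% intervals from limma over 12 livers; OO - CO and OC - CC compare maternal diets, and the interaction is a difference of differences. Only the intervals of miR-486-5p in CO - CC (0.07 to 1.47) and OO - CO (-1.45 to -0.05) leave out 0, and no adjusted p is under 0.05.

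Other miRNAs studied in red cells or red cell formation, and also made by many other cells, did not follow miR-451a closely. Of 11 on that list, 10 had a row, and the 4 most abundant were miR-92a-3p (13166 to 17050 CPM), miR-16-5p (5385 to 9397 CPM), miR-191-5p (6362 to 8481 CPM) and miR-25-3p (1301 to 1516 CPM), none of them restricted to red cells. Their r with miR-451a was -0.379, 0.455, -0.114 and 0.348 over 12 livers. The other rows of the list lay between 0.0671 (miR-221-3p) and 0.468 (miR-15a-5p), where the median over all other rows was 0.046. By limma 0 of the 10 passed in any of the 7 comparisons. At an unadjusted p under 0.05 were 4 for the sons' diet (57 of all 386 rows) and 2 for OO against OC (28). CO against CC (63) and OO against CO (47) had 1 each, and the other 3 comparisons had 0. Their median log2 difference was 0.08 for the sons' diet and 0.12 for the maternal diet, and for OO against CO it was 0.17, where the 5 rows stood at a median of -0.51 and all rows at 0.13. The list summed to 32824 CPM in CO replicate 1, inside the range of the other livers (29313 to 35662 CPM). That sum is mostly miR-92a-3p, miR-16-5p and miR-191-5p, so it says little of the other rows. In CO replicate 1, miR-92a-3p, miR-191-5p and miR-221-3p lay below their medians over the 12 livers. The other rows of the list lay above theirs, none at its highest.

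The 6 leukocyte rows, of white cells, summed to 2863 CPM in CO replicate 1, against 2270 to 4580 CPM over all livers, and miR-223-3p, a miRNA of neutrophils, was at 149.1 CPM in a range of 86.28 to 192.7. miR-142-5p, found across the blood lineages, was the most abundant of the list at 1472 to 3098 CPM, with r = 0.0328 with miR-451a. miR-146a-5p, an inflammation-linked miRNA at 268.3 to 517.7 CPM, ran opposite to miR-451a at r = -0.797, the lowest of all 385 other rows, and miR-150-5p, of mature lymphocytes, stood at r = -0.508. Of the remaining leukocyte rows, miR-155-5p stood at r = -0.291, miR-142-3p at 0.271 and miR-223-3p at 0.39. With limma, 0 of the 6 leukocyte rows passed in any comparison. At an unadjusted p under 0.05 were 2 for the sons' diet (57 of all 386 rows) and 1 for the maternal diet (27). CO against CC (63 of all rows), OO against OC (28) and OO against CO (47) had 1 each, and the remaining comparisons had 0. Their median log2 difference was -0.24 for the sons' diet, 0.19 for the maternal diet and 0.41 for OO against CO. By the sons' diet 5 of the 6 were lower, and miR-223-3p was higher, at 0.43.

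Of the hepatocyte list, miR-122-5p, the main hepatocyte miRNA, was at 19991 to 28851 CPM and miR-192-5p, the more abundant row, at 222649 to 295048 CPM. The 4 hepatocyte rows had a median log2 difference of -0.09 for the sons' diet and 0.01 for the maternal diet. The 2 endothelial rows, both arms of miR-126, had -0.11 for the sons' diet and 0.14 for the maternal diet. Both muscle rows were uneven between livers, with miR-133a-3p at 20.48 to 1137 CPM and miR-1a-3p at 0.7431 to 49.18 CPM, and a median log2 difference of -0.78 for the sons' diet and -0.53 for the maternal diet. CO replicate 1, which was highest for all 5 erythroid rows, summed to 93.61 CPM of muscle miRNAs, and OO replicate 1, with the highest sum of 1186 CPM, had miR-486-5p at 2280 CPM. A part of muscle in the levels of miR-486 was not tested. In the limma fit 0 of these 8 hepatocyte, endothelial and muscle rows passed in any comparison. For the sons' diet 1 had an unadjusted p under 0.05 (57 of all 386 rows). So did 2, both arms of miR-126, in each of CO against CC (63), OO against CO (47) and the interaction (15). The median log2 difference of the arms of miR-126 was -0.34, 0.36 and 0.45 in these comparisons, opposite in sign to the median of the 5 erythroid rows.

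The rows most like miR-451a over the 12 livers, by Pearson's r of log2(CPM + 1) and given as a description, were the arms of miR-144 at 0.933 and 0.879. Then came miR-1948-5p (0.752), miR-486-3p (0.741), miR-27b-3p (0.705), miR-486-5p (0.685), miR-1948-3p (0.656), miR-15a-3p (0.654) and miR-128-3p (0.654), among 385 rows whose median r was 0.046. The 5 rows in this order that are not of the 2 loci differed widely in level, from miR-27b-3p at 23884 to 29079 CPM to miR-15a-3p at 1.652 to 5.345 CPM. Without CO replicate 1 the arms of miR-144 stood at 0.83 and 0.726, miR-27b-3p at 0.638, miR-1948-5p at 0.534, miR-15a-3p at 0.537, miR-486-3p at 0.443, miR-128-3p at 0.386, miR-486-5p at 0.316 and miR-1948-3p at 0.294. miR-101a-3p, which shares seed bases with miR-144-3p, had r = 0.352 with miR-451a. The livers share 1 table and its scaling, which also enters these values.

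**Figure D5:**
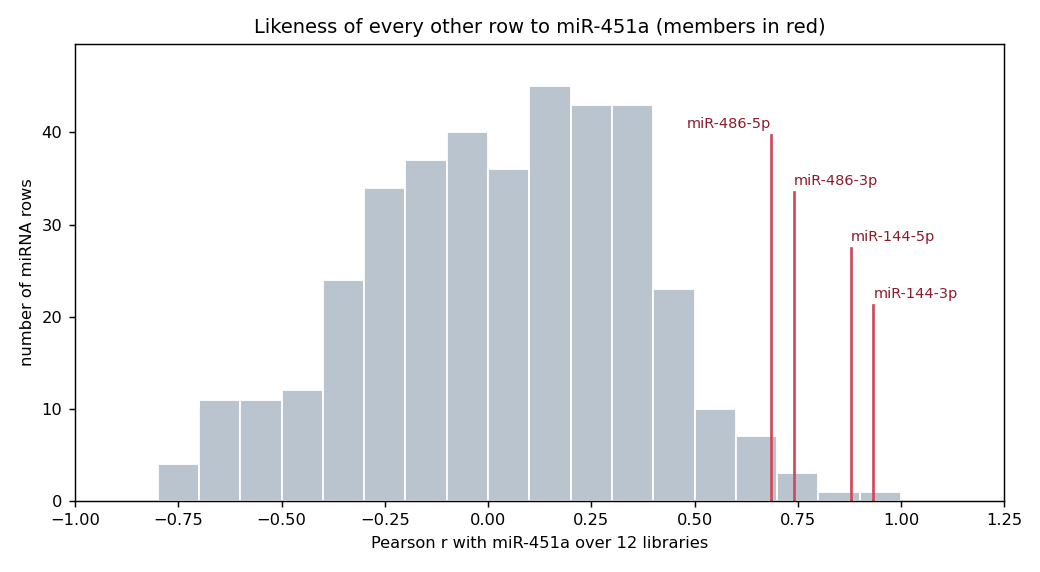
Number of miRNA rows by their Pearson r with miR-451a over 12 livers (grey bars, 385 rows), with the other 4 erythroid rows as red lines whose height has no meaning. The rows spread from -0.797 upwards around a median of 0.046, and the arms of miR-144 lie at 0.933 and 0.879.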

How the data were processed

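The authors deposited 1 table of CPM for 386 mature miRNA rows in 12 livers, from small RNA libraries made with a TruSeq kit, per the labels' protocols. The submitters' processing notes name Bowtie 1.2.3. Not given in the sources used here are the reference it was run against, the build, the row filter and how reads matching several miRNAs were shared out. Each column summed to 0.866% to 1.17% over 1e6, and 100% of values were whole multiples of 1 step within 0.01 of it, which gave the depths (5.45 to 22.2 M reads, with M for 1e6; median 13.2). Taking that step as 1 read is an assumption: the lowest value of a column was 1 to 20 steps, so the depths are not certain and no count test was used. Groups came from the labels' maternal and offspring diets. On log2(CPM + 1), limma 3.58.1 (R 4.3.3, trend on the mean) fitted 4 group means to all rows, with Benjamini-Hochberg adjustment over 386 rows in each of 7 comparisons and a threshold of 0.05. Correlations used 100000 permutations, ratios the exact test with 400 arrangements. The rows, the lists and the tests were chosen with earlier results of these data known. Named are the 5 rows, the 5 other rows most like miR-451a, and up to 4 of the most abundant rows of each list. miR-223-3p, miR-101a-3p, the values of CO replicate 3 and those of further list rows were added after they were seen. Alternatives were 2 other scalings (TMM unweighted, trims of 30% and 5%), pseudocounts of 0.25 and 5, a mean of at least 10 CPM, each pair of groups alone and each library left out. miR-363-3p, miR-206-3p and miR-499-5p had no row. Hairpins were folded with RNAfold 2.7.2, and gene positions are from GENCODE on GRCm38. The mature sequences of miR-486 were not used here.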

Additional observations from a re-analysis of the deposited data

Results flagged for a closer look

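Among 36 sets of 6 livers (each row or ratio within 1 diet level), 5 had a highest or lowest liver whose gap to its neighbour took up more of the range than 0.625, Dixon's 95% limit for 6 values; chance gives about 1 in 20 sets, and the sets share livers. miR-144-3p in OC replicate 2 lay above the other sons of obesogenic mothers with a gap of 0.663 of the range. miR-144-5p in CO replicate 1 lay above the other obesogenic-fed sons, with 0.646. The miR-144-3p to miR-451a ratio was lowest in OO replicate 3 among obesogenic-fed sons, with 0.628. The miR-486-5p to miR-451a ratio of CO replicate 3 lay above that of the other sons of control mothers, with 0.675, and above that of the other obesogenic-fed sons, with 0.672.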

How the results depend on the processing

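By limma 0 of the 5 rows passed in any of the 7 comparisons under any alternative run, and the lowest adjusted p was 0.0893, for miR-486-5p in CO against CC without CO replicate 2. Of 615 recomputed log2 differences 585 kept their direction and 30 turned, each with 1 library left out. With 1 library left out, the sons' diet gave -0.010 to 0.398 for miR-451a, -0.088 to 0.299 for miR-144-3p, -0.145 to 0.151 for miR-144-5p and -0.064 to 0.151 for miR-486-3p, and the maternal diet -0.373 to 0.035 for miR-451a. CO against CC gave -0.021 to 0.752 for miR-144-3p and -0.097 to 0.423 for miR-144-5p. OO against OC gave -0.218 to 0.096 for miR-451a, -0.376 to 0.149 for miR-144-3p, -0.386 to 0.054 for miR-144-5p and -0.380 to 0.071 for miR-486-5p. OC against CC gave -0.074 to 0.266 for miR-451a, -0.349 to 0.175 for miR-144-3p, -0.311 to 0.128 for miR-144-5p, -0.048 to 0.403 for miR-486-5p and -0.070 to 0.289 for miR-486-3p. By Pearson's r, between 6 (without CO replicate 1) and 10 of the 10 pairs passed, and 9 did with CO replicates 1 and 3 both left out. For the log2 ratio of miR-486-5p to miR-451a, the obesogenic minus control difference ranged from -0.096 to 0.283 by the sons' diet and from -0.285 to 0.094 by the maternal diet. For that of miR-144-5p to miR-144-3p, the difference ranged from -0.035 to 0.127 by the maternal diet. The cause of these turns was not tested. No paired analysis was possible because the replicate numbers follow accession order. A planned count test was not run because the deposited values are CPM and the reads behind them are not certain. With 3 livers a group, differences inside the printed intervals could not be resolved, and miR-486-3p rests on the fewest reads.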
